A study of Mus musculus with 10 samples.

Results

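The enzymes and transporters of glycolysis and the pentose phosphate pathway were examined in hematopoietic stem and progenitor cells (HSPCs) of irradiated mice given epidermal growth factor (EGF) or saline. The 36 members were taken by gene symbol, for their place in these pathways, from the 55573 genes of the count files. They comprise 4 transporters of glucose or lactate, 10 genes of upper glycolysis, 2 bifunctional regulators of phosphofructokinase and 7 genes of lower glycolysis. The rest are 2 lactate dehydrogenase genes, 4 genes of the pyruvate dehydrogenase complex or its kinases, 3 of the oxidative and 4 of the non-oxidative pentose phosphate pathway. All 36 symbols were found, and 35 had enough counts to be tested. The exception was the neuronal enolase gene Eno2, at 0.956 ± 0.571 CPM with saline and 0.616 ± 0.585 CPM with EGF (CPM, a gene's counts as parts of the library's total on a common scale, adjusted by the TMM method; SD, n = 5 each).

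RNA came from bone marrow HSPCs of C57BL/6 mice aged 16 weeks, at 6 weeks after a total body dose of 500 cGy, which both groups had received. One group of 5 libraries was from mice given saline subcutaneously and the other group of 5 from mice given EGF, the ligand of the receptor tyrosine kinase EGFR, by the same route. The labels give neither the EGF dose nor the sort gate. Whether the libraries stem from different mice is not stated, and the p-values then cover only the spread among these libraries, which could be technical.

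Glycolysis splits glucose into pyruvate in the cytosol. Its upper steps trap and phosphorylate the sugar at the cost of ATP, and its lower steps, from glyceraldehyde-3-phosphate dehydrogenase to pyruvate kinase, return ATP and NADH. The pentose phosphate pathway branches off at glucose-6-phosphate: its oxidative arm makes NADPH, and its non-oxidative arm makes ribose-5-phosphate and exchanges sugars with glycolysis. Hematopoietic stem cells are known for a reliance on glycolysis with lactate production in their low-oxygen niche, and hypoxia-inducible factors and Myc are known activators of these genes.

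Total counts were 6805106 to 8370820 per library. A count was seen for 18734 to 20046 genes in 9 libraries and for 12731 in EGF replicate 5, where 14.0% of the tested genes had 0 counts against 0.0621% to 0.326% in the others. The share of mitochondrial mRNA was 5.89% to 7.43% of counts with saline and 7.72% to 10.04% with EGF. The nuclear RNA Malat1 took 0.336% to 0.444% with saline, 0.387% to 0.908% in EGF replicates 1 to 4 and 1.62% in EGF replicate 5. Of the 9 stem and progenitor markers, Kit was at 380.3 to 505 CPM over the 10 libraries and Gata2 at 210.1 to 363 CPM. Flt3 was at 167 to 270.4 CPM and Cd34 at 254 to 427 CPM, while Procr was not detected in EGF replicate 5. Cd3e and Hbb-bs stayed at or below 2.32 and 3.63 CPM, but the marker lists that hold them were higher. The 5 T and NK cell markers summed to 39.9 to 55.4 CPM with saline and 3.92 to 47.8 CPM with EGF. The 8 erythroid markers summed to 31.1 to 69.8 CPM with saline and 31.2 to 85.5 CPM with EGF. Markers of some other cell types were higher still. Plasma cell markers summed to as much as 1456 CPM, stromal and endothelial markers to 810 CPM and late neutrophil markers to 516 CPM. Because EGF replicate 5 stood apart, counts of members are given with and without it, and so is each member's log2 fold change that it moved by over 1.5 times.

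The members share a feature of promoter sequence that their choice did not use. Promoter windows from RefSeq (GRCm38.p6, 250 bases before to 50 after each start) were searched on both strands for ACGTG and GCGTG, the cores of the hypoxia response element, and for CACGTG, the E-box bound by Myc and Max, which itself contains ACGTG. Windows were found for 35 of the 36 genes (49 windows), and 31 of these 35 genes held ACGTG or GCGTG, against 46.7% of the 27025 genes in the table. By window the share was 79.6%, against 43.8% of all 32851 windows. ACGTG was in 42.9% of the members' windows against 19.6% of all, GCGTG in 61.2% against 32.4%, and CACGTG in 8.16% against 7.15%. The members' windows were also richer in G and C (median 60.7% against 52.7%), and the part of base composition in these shares was not tested. The 4 genes with windows but neither core were Eno2, Gpi1, Tpi1 and Rpe. A match is a run of letters in the reference and does not show that a factor binds there.

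Promoter bases are printed here for the 3 members whose EGF and saline libraries did not overlap, Pgd, Eno1 and Pgk1, and for Ldha. A window of Ldha held the E-box motif, as did windows of Pfkfb3, Pfkm and Slc16a1, which are not printed. Only bases before the start that lie outside annotated exons are given, 5′ to 3′ on the gene's strand, and capitals mark a match to a searched motif on either strand. Ldha lies in chr7:46845554-46845803 on the plus strand, Pgk1 in chrX:106186850-106187099 on the plus strand, Eno1 in chr4:150236458-150236707 on the plus strand and Pgd in chr4:149166772-149166955 on the minus strand.
Ldha: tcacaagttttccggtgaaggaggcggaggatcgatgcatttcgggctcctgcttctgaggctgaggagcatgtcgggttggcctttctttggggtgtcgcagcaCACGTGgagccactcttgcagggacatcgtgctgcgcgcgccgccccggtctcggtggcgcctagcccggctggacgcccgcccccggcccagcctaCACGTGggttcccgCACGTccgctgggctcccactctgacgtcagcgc
Pgk1: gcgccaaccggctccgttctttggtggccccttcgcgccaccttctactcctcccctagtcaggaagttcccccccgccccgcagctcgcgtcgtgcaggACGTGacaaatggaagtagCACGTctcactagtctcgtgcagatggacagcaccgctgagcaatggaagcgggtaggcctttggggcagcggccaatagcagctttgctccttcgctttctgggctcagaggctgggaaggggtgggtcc
Eno1: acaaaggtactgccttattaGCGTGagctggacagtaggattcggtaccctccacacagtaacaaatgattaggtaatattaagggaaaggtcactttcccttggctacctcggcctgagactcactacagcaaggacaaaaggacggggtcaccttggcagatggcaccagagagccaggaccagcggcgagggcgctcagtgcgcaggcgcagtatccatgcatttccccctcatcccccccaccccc
Pgd: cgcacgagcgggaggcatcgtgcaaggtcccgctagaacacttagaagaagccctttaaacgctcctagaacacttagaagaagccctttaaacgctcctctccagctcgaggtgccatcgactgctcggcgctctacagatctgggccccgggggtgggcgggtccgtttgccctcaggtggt
The printed Ldha window held 5 matches to ACGTG counted over both strands, because each of its 2 CACGTG motifs reads as ACGTG in both directions. Another Ldha window, chr7:46846832-46847081, is not printed and held 1 match to GCGTG and none to ACGTG or CACGTG. Another Pgd window, chr4:149166083-149166332, is not printed and held no match in such bases. The Pgk1 window held 2 matches to ACGTG, at 150 and 131 bases before the start, and the Eno1 window held 1 match to GCGTG. The 184 bases shown for Pgd held none, since its GCGTG lay in an annotated exon and is not printed. Among the 11 members whose values are given in every library because of their p or their separation, 10 had ACGTG or GCGTG in a window and Gpi1 had none. Of all 35 members with windows 31 had one, so the motif does not set these 11 apart from the other members.

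No member passed the test in either direction. With edgeR's quasi-likelihood test over all 12874 genes, 0 of 35 members had an adjusted p under 0.05 lower or higher with EGF, where the test called 0.00777% of all genes higher and 0.0% lower. Most members lay on the lower side: for 26 of 35 the EGF against saline log2 fold change was negative (median -0.19), while 51.5% of all genes were below 0, with a median of -0.01. At an unadjusted p under 0.05, 10 members were lower and 0 were higher, against 2.73% of all genes lower and 6.14% higher. For 3 members the highest EGF library was below the lowest saline library, against 1.65% of all genes, and for 0 members the lowest EGF library was above the highest saline library, against 1.62%. These are counts over genes that vary together within a library, and they are given as a description.

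DESeq2, run as an alternative, called 2 members lower, Pgd (adjusted p = 0.00188) and Eno1 (adjusted p = 0.0214), and 0 higher. It gave an adjusted p to 9795 genes, 33 of them members, leaving out Aldoc and Eno3. Of these genes it called 0.184% lower and 0.347% higher. By DESeq2, and by edgeR with RLE scaling in place of TMM, the log2 fold change was negative for 24 of 35 members. Over the 20 alternatives tried, with edgeR, limma-voom or DESeq2, the adjusted p ran from 0.000428 to 0.833 for Pgd and from 0.00222 to 0.833 for Eno1. Without EGF replicate 5, 28 of 35 members were below 0, with a median of -0.12 against 0.00 over all genes. In that fit edgeR gave 0 members an adjusted p under 0.05, and at an unadjusted p under 0.05 it had 14 members lower and 1 higher, the glucose transporter gene Slc2a3, against 7.39% and 8.38% of all genes. Without EGF replicate 5 the groups did not overlap for 4 members with EGF lower, Pgd, Eno1, Pgk1 and Pgam1, against 2.36% of all genes, and for 1 with EGF higher, Slc2a3, against 2.66%. DESeq2 without EGF replicate 5, a fit added after the data were seen, called 6 members lower: Pgd, Eno1, Pgk1, Gapdh, Ldha and Pgam1. It called 1.03% lower of the 12588 genes to which it gave an adjusted p, 35 of them members. The count of 10 lower members at an unadjusted p under 0.05 was 6 without Saline replicate 4 (1.56% of all genes), 5 without Saline replicate 5 (1.7%) and 6 without EGF replicate 3 (2.04%). It was 6 without EGF replicates 3 and 4 (1.58%) and 6 with EGF replicates 1 and 2 alone (3.14%).

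**Figure D1:**
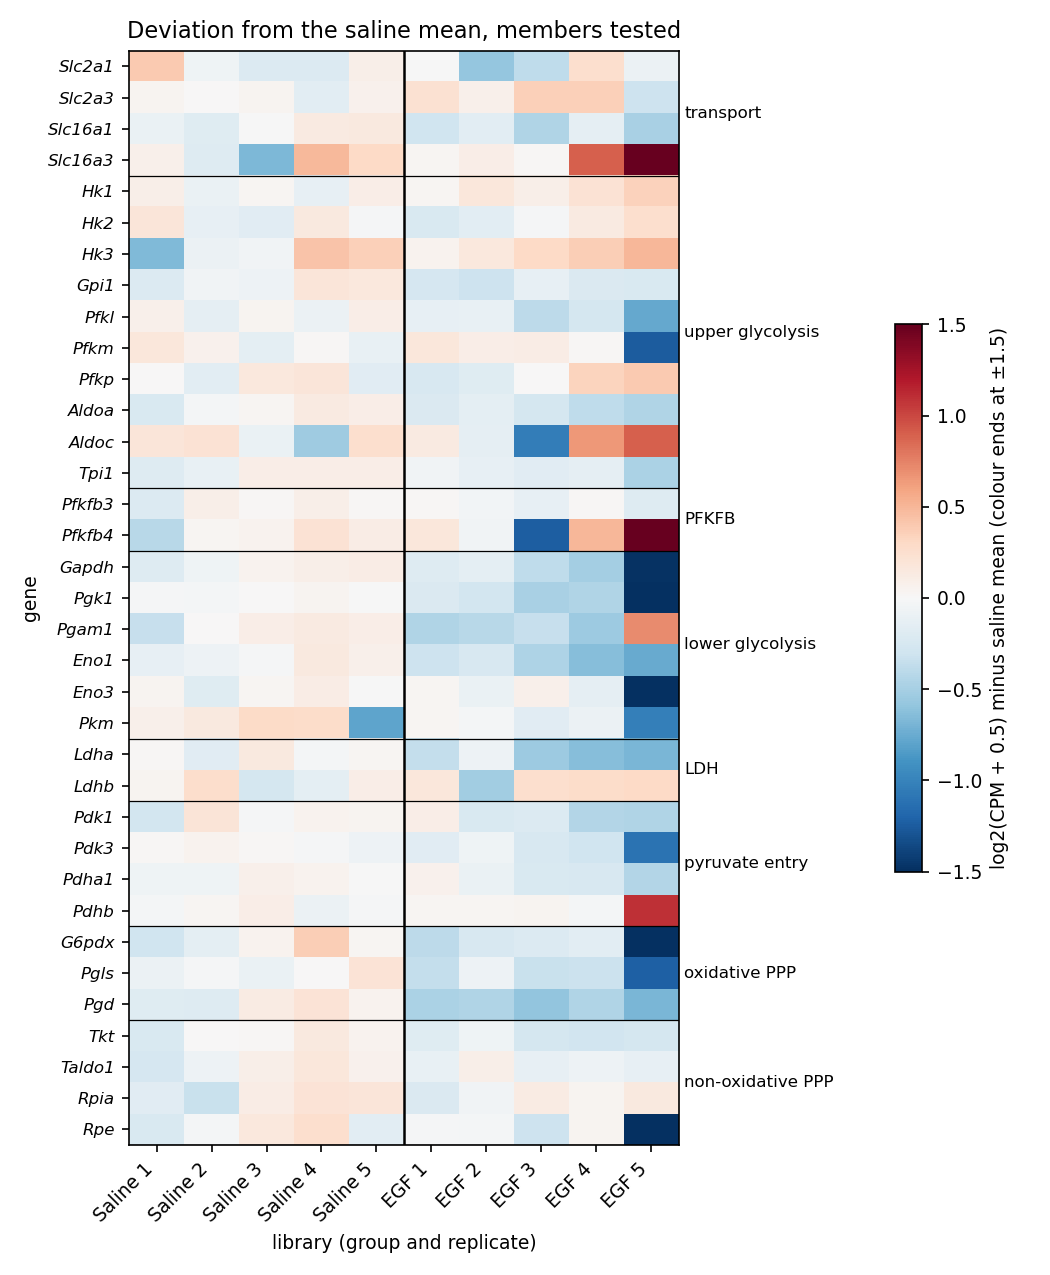
Deviation of each of the 35 tested members (rows, grouped by role) in each library (columns) from the saline mean, as log2(CPM + 0.5), with blue below and red above that mean and the colour ending at ±1.5. Blue prevails in the EGF columns for the lower glycolysis and oxidative pentose phosphate (PPP) rows, and the strongest colours of both kinds stand in EGF replicate 5.

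The genes lay at very different levels. Per kilobase of exon, mean saline levels were highest for Ldha (91.7 CPM per kb), Pkm (91.1), Gapdh (78.7), Aldoa (71.4), Taldo1 (63.8), Tkt (60.6) and Gpi1 (55.7), and lowest for Eno2 (0.203) and Slc16a3 (0.914). The exon length used is that of all annotated exonic bases of a gene, over all its transcripts, and may exceed the expressed mRNA. For Gapdh it was 4.133 kb in 2 blocks, so the order depends in part on the annotation. By this measure the most abundant members came from glycolysis and from the non-oxidative arm alike. Summed over members, saline libraries 1 to 5 had 3918, 4082, 4362, 4541 and 4212 CPM, and EGF libraries 1 to 5 had 3820, 3918, 3645, 3690 and 3225 CPM. These sums, and the share of all counts given below, include an upstream gene model of Aldoa at up to 1.78 CPM. Only EGF replicate 2 reached the saline range, where it equalled the lowest library, Saline replicate 1, to within rounding. As a share of all counts the members took 0.399% to 0.439% with saline and 0.296% to 0.389% with EGF, and the ranges did not overlap. In bulk RNA, fewer cells of a type with high levels and less RNA per cell cannot be told apart.

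The transporters did not share a direction. Slc16a1, which encodes MCT1, a carrier of lactate and pyruvate across the plasma membrane, was at 67.9, 63.9, 72.6, 79.6 and 80.8 CPM in saline libraries 1 to 5 and at 59.2, 64.9, 52.9, 66.2 and 51.5 CPM in EGF libraries 1 to 5. The ranges overlapped, with EGF replicates 2 and 4 above the lowest saline library. Means were 73.0 ± 7.28 CPM and 59.0 ± 6.69 CPM (SD, n = 5 each; log2 fold change -0.31, SE 0.11, edgeR adjusted p = 0.552). Slc2a1, which encodes GLUT1, spanned 17.5 to 26.8 CPM with saline and 13.4 to 24.2 CPM with EGF. Slc2a3, which encodes GLUT3, a glucose carrier of high affinity, had a log2 fold change of 0.16 (SE 0.13), and of 0.26 (SE 0.08) without EGF replicate 5. EGF replicates 1 to 4 were at 85.9, 76.9, 93.6 and 93.8 CPM, all above the highest saline library at 76.8 CPM, and EGF replicate 5 was at 59.1 CPM, below the lowest saline library at 65.7 CPM. Slc16a3, which encodes MCT4, a lactate exporter, was at 2.73 to 6.72 CPM with saline and 4.71 to 9.08 CPM in EGF replicates 1 to 4. It stood at 37.1 CPM in EGF replicate 5, and its log2 fold change of 1.32 (SE 0.61) was 0.29 without that library.

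In upper glycolysis 6 of 10 genes were below 0 (median log2 fold change -0.05), and 3 of them had an unadjusted p under 0.05. Aldoa encodes the main aldolase, which cleaves fructose-1,6-bisphosphate. It was at 177, 202, 211, 228 and 222 CPM in the saline libraries and 179, 188, 172, 159 and 151 CPM in the EGF libraries, so that 4 of 5 saline libraries lay above all EGF libraries. The means were 208 ± 20.2 and 169.7 ± 14.7 CPM (log2 fold change -0.29, SE 0.09, edgeR adjusted p = 0.552). Gpi1, glucose-6-phosphate isomerase, was at 309.5, 345, 339.8, 404 and 399 CPM with saline and 299, 288, 328, 309 and 304 CPM with EGF. Here 4 of 5 EGF libraries lay below the lowest saline library, and the means were 359.6 ± 40.9 and 306 ± 14.5 CPM (log2 fold change -0.23, SE 0.09). A gene on the opposite strand covers 11.5% of the exonic bases of Gpi1.

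Pfkl encodes the liver-type subunit of phosphofructokinase, the enzyme of the committed step. It was at 113, 98.3, 111, 102 and 116 CPM with saline and 98.7, 99.7, 82.0, 89.5 and 63.0 CPM with EGF. Only Saline replicate 2 lay within the EGF range. The means were 108 ± 7.68 and 86.6 ± 15.0 CPM (log2 fold change -0.32, SE 0.12, edgeR adjusted p = 0.552). For the other phosphofructokinase subunits the sign turned without EGF replicate 5, from -0.09 (SE 0.23) to 0.10 (SE 0.08) for Pfkm and from 0.08 (SE 0.15) to -0.01 (SE 0.12) for Pfkp. Of the hexokinases, which phosphorylate incoming glucose, Hk1 was at 0.17 (SE 0.08) and Hk3 at 0.23 (SE 0.18). Hk2 was at 0.00 (SE 0.12), just below 0, and at -0.07 (SE 0.10) without EGF replicate 5. Triose phosphate isomerase (Tpi1) was at -0.19 (SE 0.10), and at -0.12 without EGF replicate 5. The minor aldolase gene Aldoc, under 8 CPM in every library, was at 0.24 (SE 0.42), and at 0.00 without EGF replicate 5. Pfkfb3 and Pfkfb4 encode enzymes that set the level of fructose-2,6-bisphosphate, an activator of phosphofructokinase. Their log2 fold changes were -0.07 (SE 0.09) and 0.57 (SE 0.48), and -0.04 for each without EGF replicate 5, where Pfkfb4 stood at 27.7 CPM against 2.996 to 11.2 CPM in the other EGF libraries.

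In lower glycolysis all 6 tested genes were below 0 (median log2 fold change -0.42, and -0.33 without EGF replicate 5). Eno1, which encodes the main enolase and lies on chromosome 4 from 150236721 to 150248879 (GRCm38), was at 142, 147, 153, 171 and 164 CPM with saline and 124, 131, 112, 99.0 and 91.8 CPM with EGF. The groups did not overlap, with EGF the lower. Means were 155 ± 12.0 and 112 ± 16.6 CPM, a log2 fold change of -0.48 (SE 0.11), with an edgeR adjusted p of 0.552 (0.108 without EGF replicate 5). Pgk1 encodes phosphoglycerate kinase, the first ATP-yielding step, on chromosome X from 106187100 to 106203699. It was at 86.8, 85.6, 87.9, 90.6 and 87.6 CPM with saline and 75.6, 72.5, 62.6, 63.9 and 19.1 CPM with EGF. The saline libraries lay within a narrow band, all EGF libraries were below it, and EGF replicate 5 was far below the others. The log2 fold change was -0.58 (SE 0.28, edgeR adjusted p = 0.552), and without EGF replicate 5 it was -0.35 (SE 0.07, edgeR adjusted p = 0.108), the means then being 87.7 ± 1.85 CPM (n = 5) and 68.7 ± 6.37 CPM (n = 4).

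Gapdh, glyceraldehyde-3-phosphate dehydrogenase, is often used as a reference gene. It was at 285, 309, 338, 345 and 349.9 CPM with saline and 284, 293, 249, 228 and 115 CPM with EGF. The ranges overlapped only by Saline replicate 1 and EGF replicate 2. The log2 fold change was -0.47 (SE 0.21), and -0.30 (SE 0.08) without EGF replicate 5, so that library moved the value by more than 1.5 times. Pgam1, phosphoglycerate mutase, was at 33.0 to 46.4 CPM with saline and at 30.7, 31.4, 33.0 and 28.7 CPM in EGF replicates 1 to 4, with EGF replicate 5 at 69.1 CPM. Its log2 fold change was -0.14 (SE 0.24) with that library and -0.45 (SE 0.10) without it, and EGF replicate 3 came within rounding of Saline replicate 1. Pkm, pyruvate kinase of most tissues, was at 464, 488, 536, 535 and 255 CPM with saline and 448, 432, 390.5, 413 and 216 CPM with EGF. Saline replicate 5 and EGF replicate 5 were each far below their groups, and the log2 fold change was -0.26 (SE 0.23), and -0.11 (SE 0.17) without EGF replicate 5. Another gene on the same strand covers 15.3% of the exonic bases of Pkm. Eno3, the muscle enolase, stayed under 5 CPM and had 0 counts in EGF replicate 5, and its log2 fold change was -0.36 (SE 0.68) with that library and -0.04 (SE 0.21) without it.

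**Figure D2:**
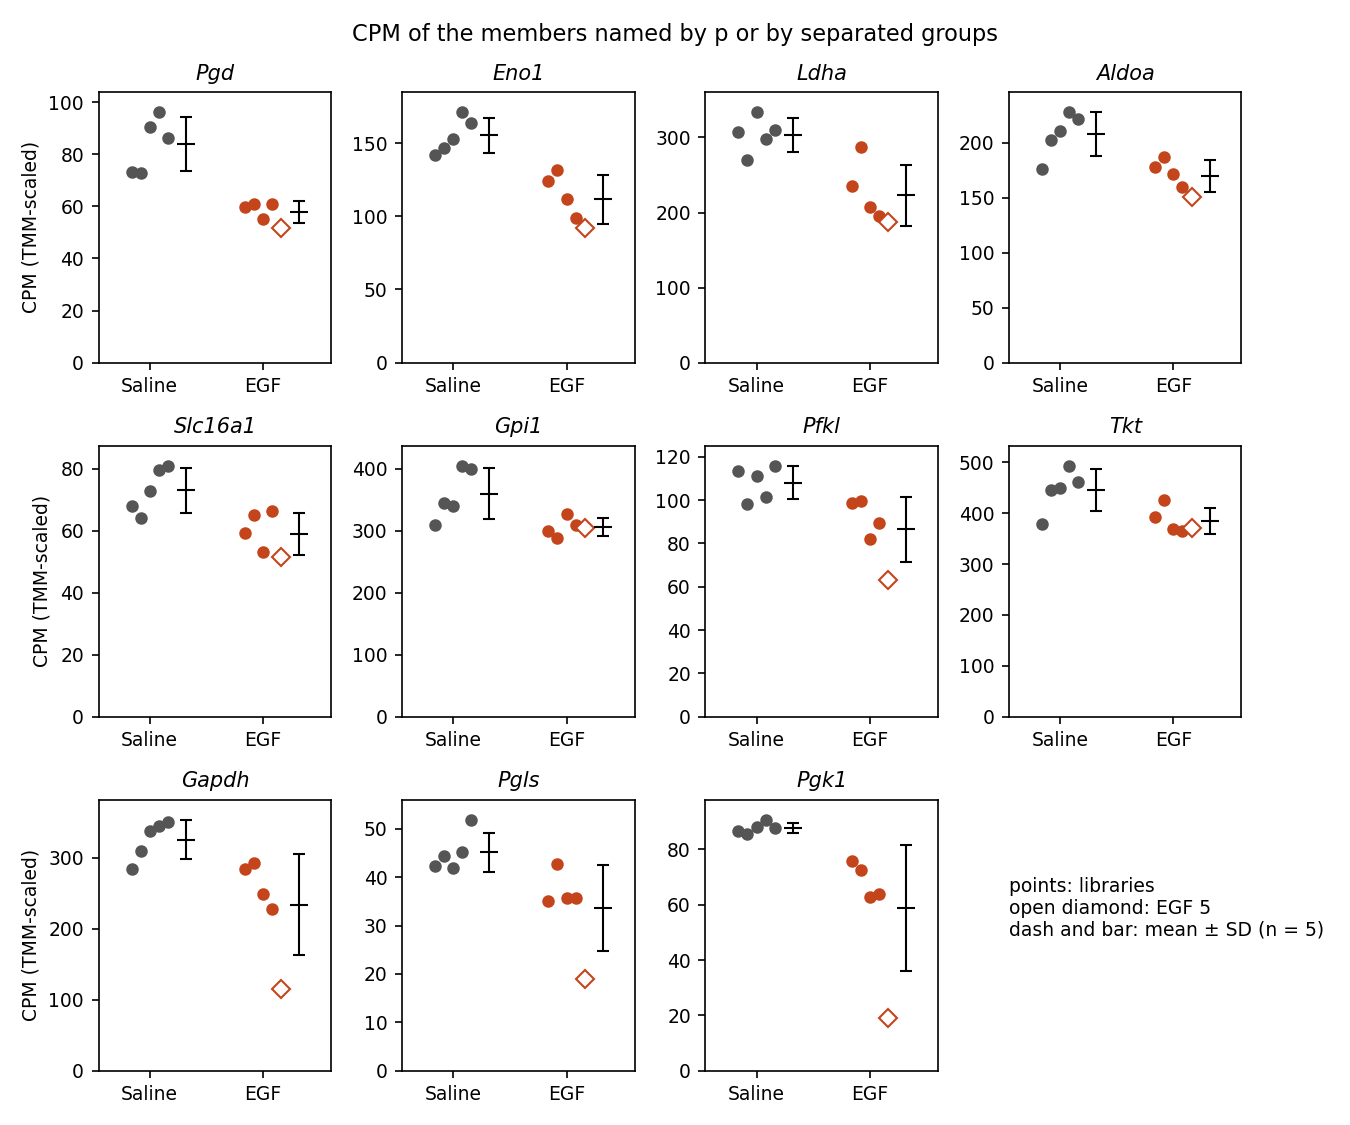
TMM-scaled CPM of the 11 members with an unadjusted p under 0.05 or with groups that do not overlap, 1 point per library, with the mean and SD (n = 5) beside them and EGF replicate 5 as an open diamond. Pgd, Eno1 and Pgk1 show no overlap, and for Gapdh, Pgls and Pgk1 the EGF SD of 71.3, 8.81 and 22.9 CPM is 30.2, 3.66 and 6.37 CPM without EGF replicate 5.

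At the end of glycolysis Ldha and Ldhb encode the subunits of lactate dehydrogenase, which converts pyruvate to lactate and back. Ldha, on chromosome 7 from 46841475 to 46855627, was at 307, 269.9, 334, 297 and 309 CPM with saline and 236, 287, 208, 195 and 188 CPM with EGF. Only EGF replicate 2 lay within the saline range. Means were 303 ± 23.1 and 223 ± 40.2 CPM (log2 fold change -0.45, SE 0.12, edgeR adjusted p = 0.552). Ldhb, the heart-type subunit, was at 13.9 to 20.2 CPM with saline and 11.5 to 20.7 CPM with EGF (0.12, SE 0.20, and 0.07 without EGF replicate 5). Of the genes that act at the pyruvate dehydrogenase complex, the kinases Pdk1 and Pdk3, which inhibit it, had log2 fold changes of -0.24 (SE 0.12) and -0.34 (SE 0.17). Pdk3 was at 27.5 CPM in EGF replicate 5 against 48.2 to 56.9 CPM in the other EGF libraries, and at -0.20 (SE 0.07) without it. The subunit genes of that complex were at -0.18 (SE 0.09) for Pdha1 and 0.31 (SE 0.21) for Pdhb, which was at 0.01 (SE 0.07) without EGF replicate 5. Pdhb was at 50.8 to 53.4 CPM in EGF replicates 1 to 4, within the saline range of 48.7 to 55.7 CPM, and at 111 CPM in EGF replicate 5.

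All 3 genes of the oxidative pentose phosphate pathway were below 0 (median -0.53, and -0.28 without EGF replicate 5). Pgd encodes 6-phosphogluconate dehydrogenase, the second NADPH-producing step, and lies on chromosome 4 from 149149991 to 149166771 (GRCm38). It was at 73.4, 73.0, 90.7, 96.2 and 86.4 CPM with saline and 59.9, 60.9, 55.4, 61.1 and 51.8 CPM with EGF. Every EGF library was below every saline library, and EGF replicate 5 did not stand apart. Means were 83.9 ± 10.4 and 57.8 ± 4.09 CPM. The log2 fold change of -0.54 (SE 0.10) had the smallest p of the members and rank 10 of all genes by p (edgeR adjusted p = 0.402), and it was -0.50 (SE 0.09, edgeR adjusted p = 0.0886) without EGF replicate 5.

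G6pdx, glucose-6-phosphate dehydrogenase, the rate-limiting enzyme of the pathway, was at 51.7 to 82.4 CPM with saline, 48.7 to 57.2 CPM in EGF replicates 1 to 4 and 8.96 CPM in EGF replicate 5. Its log2 fold change was -0.53 (SE 0.38), and -0.26 (SE 0.12) without that library. Pgls, 6-phosphogluconolactonase, was at 42.4, 44.4, 41.8, 45.2 and 51.8 CPM with saline and 35.0, 42.8, 35.7, 35.7 and 18.9 CPM with EGF. Only EGF replicate 2 lay within the saline range. The log2 fold change was -0.42 (SE 0.19, edgeR adjusted p = 0.552), and -0.28 (SE 0.09) without EGF replicate 5. Other genes cover 13.6% of the exonic bases of G6pdx, on the opposite strand, and 20.6% of those of Pgls, on the same strand. They also cover 17.9% of those of Rpe and 16.15% of those of Pdha1, on the opposite strand. For Pfkm it is 10.2%, on the same strand, and some other members have smaller overlaps.

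The non-oxidative arm lay nearer to 0, with a median of -0.14 (-0.07 without EGF replicate 5) over its 4 genes, all below 0. For Rpia this sign carries no weight, at -0.001 by edgeR and 0.007 by DESeq2. Tkt, transketolase, was at 378, 446, 449.8, 492.9 and 462 CPM with saline and 392, 426, 369.8, 365 and 370.2 CPM with EGF. Saline replicate 1 lay within the EGF range and the other 4 saline libraries lay above it. Means were 446 ± 42.1 and 385 ± 25.6 CPM (log2 fold change -0.21, SE 0.09, edgeR adjusted p = 0.552). Transaldolase (Taldo1) was at -0.08 (SE 0.09), ribose-5-phosphate isomerase (Rpia) at 0.00 (SE 0.13; -0.04 without EGF replicate 5) and ribulose-5-phosphate epimerase (Rpe) at -0.40 (SE 0.58). Rpe had 5 counts in EGF replicate 5, at 0.700 CPM, against 22.7 to 28.9 CPM in the other EGF libraries, and was at -0.09 without it.

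**Figure D3:**
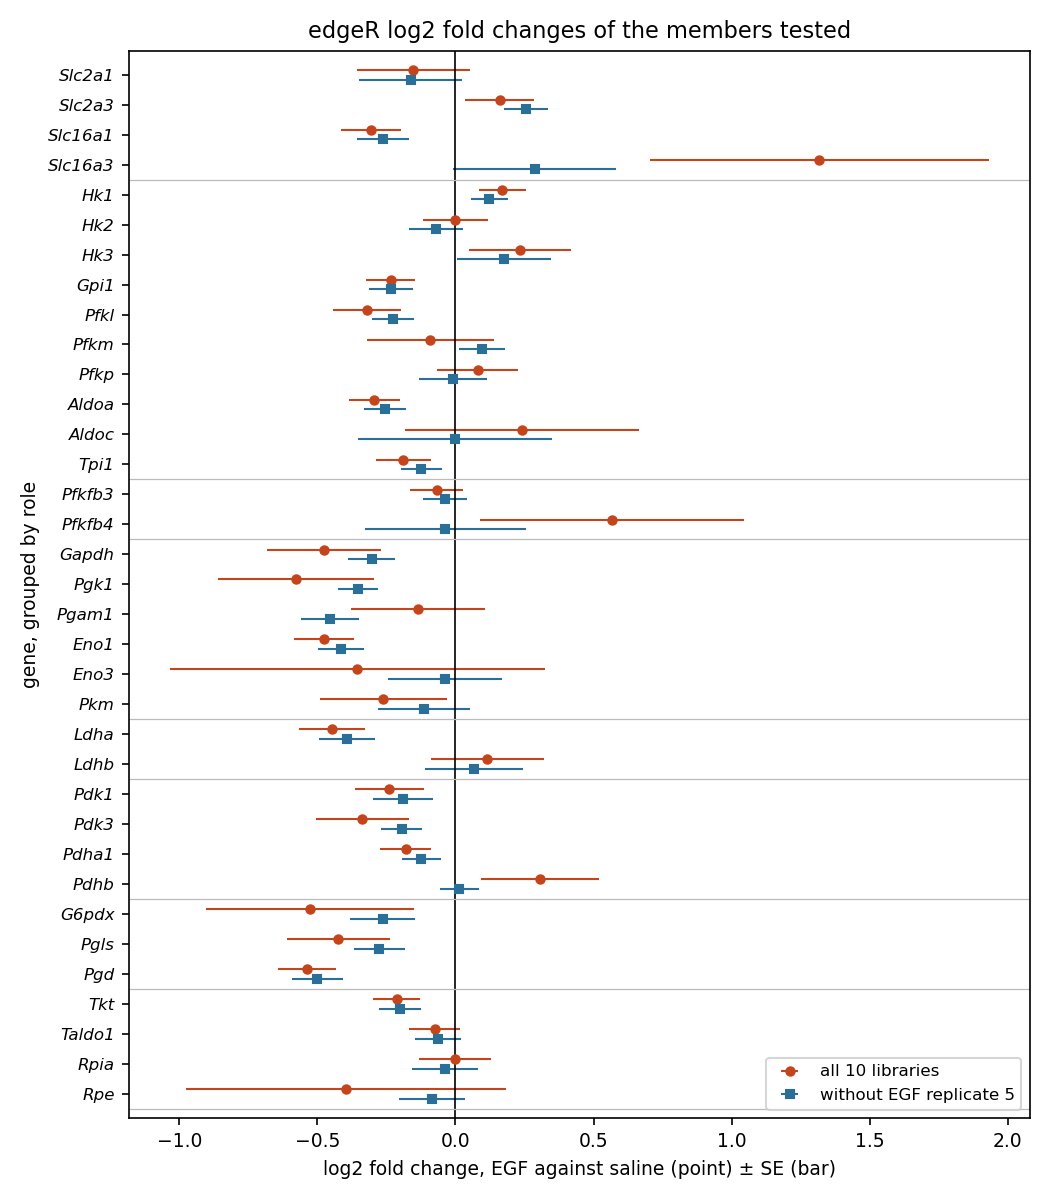
edgeR log2 fold change of EGF against saline for the 35 tested members in order of role, as points with bars of 1 SE, for all 10 libraries (circles) and without EGF replicate 5 (squares). The 6 lower glycolysis and 3 oxidative pentose phosphate genes lie left of 0 in both fits, and the wide bars of Slc16a3, Pfkfb4, Eno3, G6pdx and Rpe shorten without EGF replicate 5.

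Enzyme families were also compared by the share of 1 gene in its family within each library, per kilobase of exon. This share does not depend on library scaling, but it depends on the exon lengths described above. The 9 families were tested by two-sided exact permutation over the libraries, where the smallest p possible is 0.00794, and none had an adjusted p under 0.05. With 9 families a single one at that smallest p has an adjusted p of 0.0714, so no family could pass alone, and the lack of a call says nothing about stability. Pfkl made up 44.5%, 43.0%, 47.3%, 42.9% and 49.4% of phosphofructokinase subunit counts per kilobase with saline and 42.0%, 42.9%, 37.4%, 39.0% and 42.8% with EGF. The groups did not overlap, although the highest EGF library and the lowest saline library were both at 42.9%. The difference was -4.58 percentage points (45.4 ± 2.83% and 40.8 ± 2.47%, SD, n = 5 each; exact p = 0.00794, adjusted over the families 0.0714). The separation depended on the division by exon length. From counts without it the groups overlapped, with a difference of -5.90 points (exact p = 0.0556, adjusted 0.179).

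Ldha made up 86.4% to 91.9% of lactate dehydrogenase counts per kilobase with saline and 85.6%, 92.2%, 83.2%, 81.9% and 81.1% in EGF replicates 1 to 5. Of the EGF libraries 4 were below all saline libraries and 1 was above them (difference -4.62 points, exact p = 0.0714, adjusted 0.161). The share of Slc16a1 against Slc16a3 was 93.4% to 96.96% with saline and 89.7% to 93.9% in EGF replicates 1 to 4, with EGF replicate 5 at 62.5% (difference -8.19 points, exact p = 0.0238, adjusted 0.107). Without that library the difference was -2.17 points. Hk2 made up 19.1 ± 2.67% of hexokinase counts per kilobase with saline and 16.9 ± 0.695% with EGF (SD, n = 5 each; exact p = 0.0635, adjusted 0.161). The shares of Slc2a1 (36.4% and 31.9%), Pfkfb3 (82.6% and 77.3%), Aldoa (98.4% and 97.6%), Eno1 (91.7% and 91.6%) and Pdk1 (34.3% and 36.5%, means with saline and EGF) had exact p-values from 0.183 to 0.992.

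**Figure D4:**
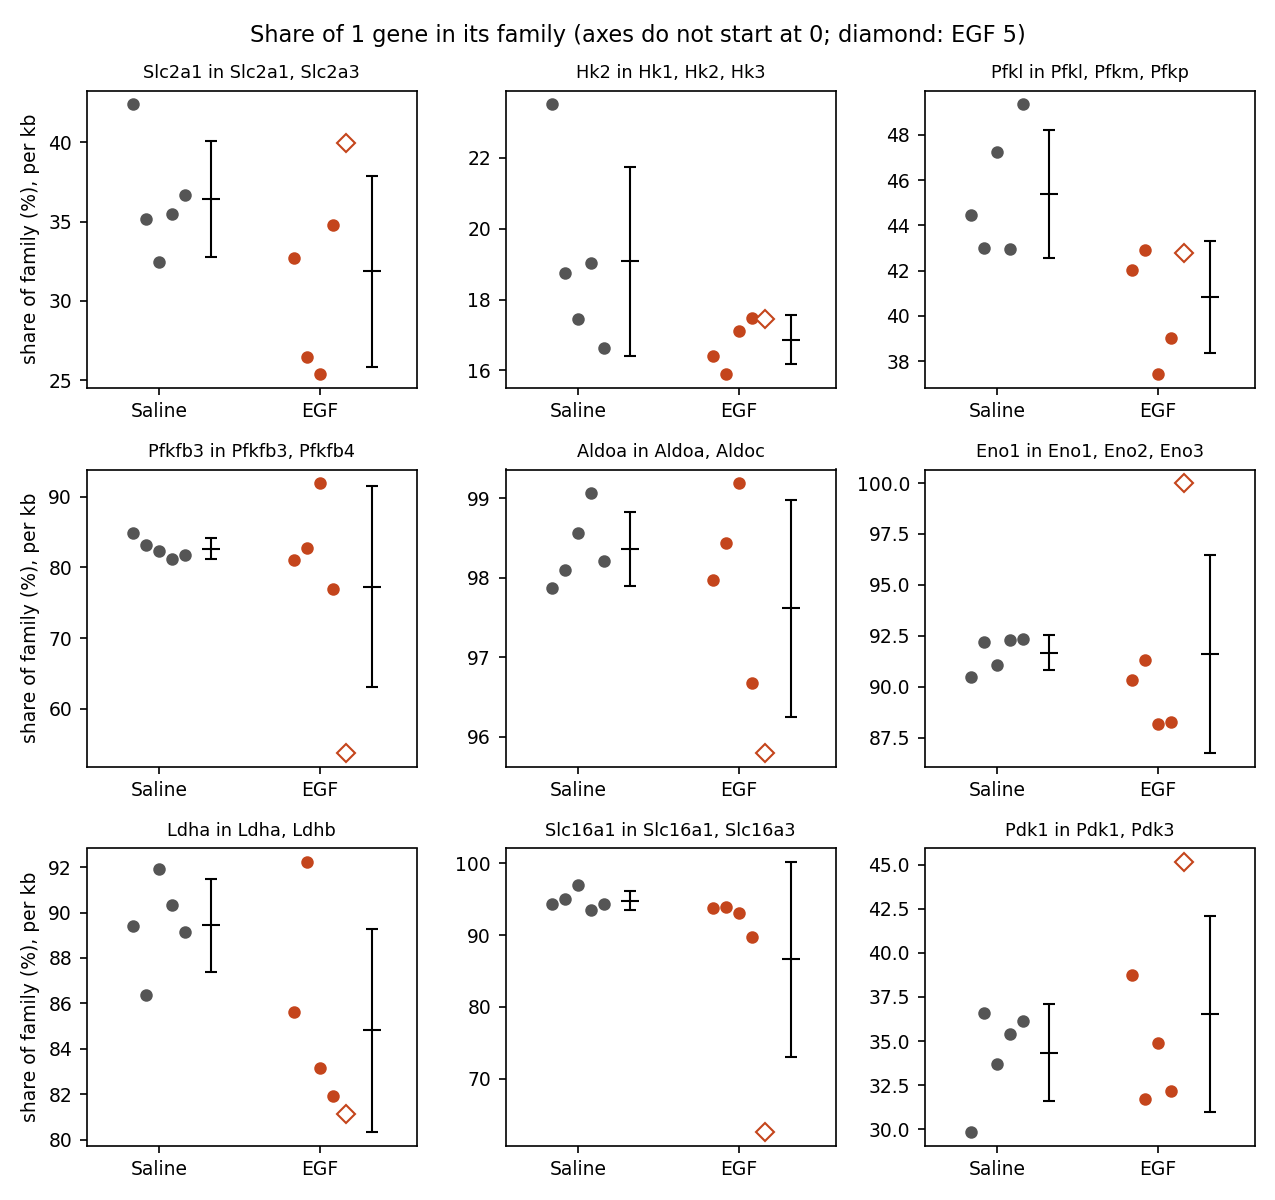
Share (%) of 1 gene in the summed counts per kilobase of its family, 1 panel per family and 1 point per library, with mean and SD (n = 5); the axes do not start at 0 and EGF replicate 5 is an open diamond. For Pfkl the groups meet at 42.9% without overlap, and for Slc16a1 EGF replicate 5 lies at 62.5%, far below the rest.

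Of 46 further genes of sugar transport, glycolysis, pyruvate entry and pentose metabolism, 32 were tested, 18 below and 14 above 0, with a median log2 fold change of -0.06. None had an unadjusted p under 0.05 by edgeR in either direction. Tigar, a fructose-2,6-bisphosphatase, was at 3.55 to 9.81 CPM in 9 libraries and at 86.8 CPM in EGF replicate 5. Slc2a2, Pgk2, Eno4, Tktl1, Tktl2 and Fbp2 had 0 counts in every library.

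Of 19 regulators of these genes, 18 were tested, 10 below and 8 above 0 (median -0.06, and 0.03 without EGF replicate 5), and 3 had an unadjusted p under 0.05. Of these 1 was lower and 2 were higher with EGF, where 2.73% of all genes were lower and 6.14% higher at that p. With so few genes these counts are a description only. Myc, a transcriptional activator of glycolytic genes, was at 290.4, 295, 279, 289 and 313 CPM with saline and 267, 279.5, 267, 236 and 195 CPM with EGF (log2 fold change -0.24, SE 0.10, edgeR adjusted p = 0.552). The EGF libraries were the lower ones except that EGF replicate 2 came just above Saline replicate 3. Arnt, the partner of the hypoxia-inducible factors, was at 56.3 ± 2.64 CPM with saline and 65.7 ± 6.32 CPM with EGF (0.22, SE 0.09). Rptor, a subunit of the growth regulator mTORC1, was at 77.4 ± 4.64 and 98.7 ± 23.6 CPM (0.35, SE 0.14), with 138 CPM in EGF replicate 5, and at 0.20 (SE 0.08) without it. The edgeR adjusted p of both was 0.552, and Hif1a itself was at -0.22 (SE 0.14), and at -0.11 (SE 0.07) without EGF replicate 5. Txnip, a glucose-responsive inhibitor of glucose uptake, is given because its values were seen to differ. It was at 200.5 to 232 CPM with saline, 244 to 275 CPM in EGF replicates 1 to 4 and 159.5 CPM in EGF replicate 5. Its log2 fold change was 0.18 (SE 0.14), and 0.30 (SE 0.06) without EGF replicate 5, where the adjusted p was 0.108 by edgeR and 0.00203 by DESeq2.

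All 5 primary granule genes of early myeloid cells, Mpo, Elane, Prtn3, Ctsg and Ms4a3, were below 0 with an unadjusted p under 0.05 (median -0.91, and -0.95 without EGF replicate 5; edgeR adjusted p = 0.552 for each). Their summed level was 1674, 3010, 3734, 5476 and 3979 CPM in saline libraries 1 to 5 and 1729, 1951, 2454, 2591 and 2369 CPM in EGF libraries 1 to 5, and none was at 0 in any library. Among saline libraries, those with a higher granule sum mostly had a higher sum of the pathway members, from Saline replicate 1, lowest in both, to Saline replicate 4, highest in both. All EGF libraries lay between 1729 and 2591 CPM, a range that held no saline library. Saline replicate 1 and EGF replicate 1 had similar granule sums, and between these 2 libraries 23 of the 36 members were lower in the EGF library and 13 were higher. This count rests on 1 library of each group, and the share over all genes was not taken. In each of the 2 libraries 21 of the 35 tested members lay below the saline mean. The members' median log2 deviation from that mean was -0.08 in Saline replicate 1 and -0.11 in EGF replicate 1. In that pair Pgd was at 73.4 and 59.9 CPM and Ldha at 307 and 236 CPM, while Gapdh was at 285 and 284 CPM, Aldoa at 177 and 179 CPM, Tkt at 378 and 392 CPM and Taldo1 at 116 and 128 CPM. The part of the granule markers in the members' levels was not tested.

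**Figure D5:**
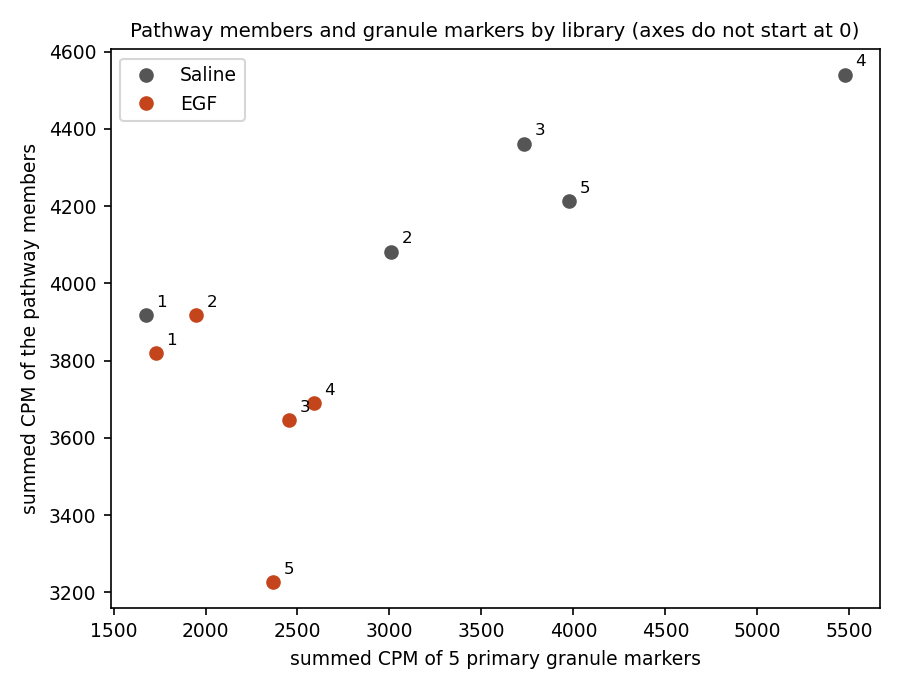
Summed CPM of the pathway members (vertical axis) against the summed CPM of 5 primary granule markers (horizontal axis), 1 point per library with its replicate number; axes do not start at 0. Saline libraries run from 1674 and 3918 CPM to 5476 and 4541 CPM (granule and member sums), and EGF libraries lie between 1729 and 2591 CPM of granule markers, with EGF replicate 5 lowest in member sum at 3225 CPM.

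The summed level of the 9 stem and progenitor markers was 1446 to 1642 CPM with saline and 1643 to 1787 CPM with EGF, and the ranges did not overlap. Of these 9 genes, 5 were above 0, and Kit (0.18, SE 0.07) and Meis1 (0.34, SE 0.12) had an unadjusted p under 0.05 (edgeR adjusted p = 0.552 each), while Procr had 0 counts in EGF replicate 5. At that unadjusted p, 6.14% of all genes were higher with EGF. The 8 cycling markers summed to 2614 to 3086 CPM with saline and 2640 to 3815 CPM with EGF, with 6 of 8 below 0 and 0 with an unadjusted p under 0.05. Marker lists of late neutrophils, monocytes and macrophages, erythroid cells, platelets, B cells, plasma cells, T and NK cells, and stroma had 0 genes with an unadjusted p under 0.05. Plasma cell markers, 3 of 4 below 0, summed to 676 to 1456 CPM with saline (median 935) and 166 to 902 CPM with EGF (median 478). Late neutrophil markers summed to 7.23 to 386 CPM with saline and 2.43 to 516 CPM with EGF, highest in EGF replicate 5, and their median log2 fold change was 0.22, and -1.65 without that library. All 4 tested monocyte and macrophage markers were below 0, with sums of 79.3 to 209.9 CPM with saline and 113 to 141 CPM with EGF. So were all 4 tested stromal and endothelial markers, with sums of 174 to 810.5 CPM and 162 to 659 CPM. The parts of these markers, and of the mitochondrial and Malat1 shares, in the members' levels were not tested.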

How the data were processed

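RNA-seq counts of 10 HSPC libraries, 5 with EGF and 5 with saline, were used. Per the labels' protocols, rRNA was depleted and libraries were amplified by PCR with a Clontech kit. Per the submitters' processing notes, the tools included bcl2fastq 2.17 and STAR, with GRCm38 and mm10 as builds. No source used here gives the counting tool, its strand setting or the annotation, so reads of overlapping genes cannot be told apart. The authors deposited raw counts per gene as whole numbers, without normalization. The 27 symbols that differed between files were replaced by GENCODE M21 names. Aldoa was taken at its main gene model, leaving out an upstream model at up to 1.78 CPM, except in the members' summed CPM and share of all counts.

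Here edgeR 4.0.16 (R 4.3.3) was run on all genes that passed filterByExpr (minimum count 10), with TMM scaling, the quasi-likelihood F test and Benjamini-Hochberg adjustment (threshold 0.05). SE is the log2 fold change over the root of F. CPM uses TMM-scaled library sizes, and an offset of 0.5 was added for logs in the heat map. Family shares were tested by two-sided exact permutation (Python 3.11.15). Alternatives were DESeq2 1.42.0, limma-voom with quality weights (limma 3.58.1), other scalings and filters, a replicate block, and fits without single libraries or without EGF replicates 3 to 5. Scripts were tested on simulated data.

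The members were taken for their place in the pathway, but they and the lists were chosen with earlier results of these data known. Values in every library are given for members with an unadjusted p under 0.05 or with groups that do not overlap, and others are given by range. Pgam1, Slc2a3, Pkm and the other members given in more detail were chosen after their values were seen. Total counts of 6805106 to 8370820 limit the precision of low genes, and PCR copies cannot be told apart, so depth covers counting error only. The least chi-square over its degrees of freedom between 2 libraries was 6.51 within a group and 5.48 across groups, so no library was the same one deposited again. Whether 2 came from the same mouse was not tested.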

Additional observations from a re-analysis of the deposited data

Results flagged for a closer look

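In all, 92 groups of 5 libraries were examined: CPM of the tested members, family shares, and the summed CPM of the members and of the primary granule markers. Of these, 16 held a library whose gap to its nearest neighbour, as a fraction of the group's range, was above Dixon's 95% critical value of 0.71. Chance flags about 1 in 20 groups. EGF replicate 5 was that library in 11 of the 16.

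EGF replicate 5 was the lowest EGF library for Pfkm (gap 0.844, 19.8 CPM), Pgk1 (0.7704, 19.1 CPM), Eno3 (0.8535, 0 CPM), Pkm (0.7526, 216 CPM), G6pdx (0.8226, 8.96 CPM) and Rpe (0.7795, 0.700 CPM). It was the highest for Pgam1 (0.8938, 69.1 CPM), Slc16a3 (0.865, 37.1 CPM) and Pdhb (0.9583, 111 CPM). Among shares it was highest for Eno1 in the enolases (0.7376, 100%) and lowest for Slc16a1 against Slc16a3 (0.8663, 62.5%). EGF replicate 2 was lowest for Ldhb (0.7927, 11.5 CPM) and highest for Taldo1 (0.7952, 147 CPM). With saline, Slc2a3 was lowest in replicate 4 (0.7176, 65.7 CPM), Pfkfb3 in replicate 1 (0.7363, 49.6 CPM) and Pkm in replicate 5 (0.7426, 255 CPM).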

How the results depend on the processing

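Over 20 alternatives the members' median log2 fold change stayed between -0.23 and -0.12. Of 220 refits of the 11 members given library by library, 213 kept direction and side of the threshold, 7 passed it (all DESeq2) and 0 reversed. Members called lower numbered 2 by DESeq2 and 6 by DESeq2 without EGF replicate 5, otherwise 0, and 0 were called higher in any of the 20. Over all genes, 1 was called higher and 0 lower by edgeR. The higher count was 0 with library-size scaling, 0 with the replicate block, 0 without EGF replicates 3 and 4, 34 by DESeq2, 8 by limma-voom with quality weights, 183 by DESeq2 without EGF replicate 5, and 0 to 4 with each library left out. The lower counts were 18 (DESeq2), 4 (limma-voom), 130 (DESeq2 without EGF replicate 5) and 0 to 4 with each library left out. The cause was not tested.

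The share of Eno1 ran from -2.16 to 0.79 points and that of Pfkfb3 from -9.02 to 0.52 points with each library left out, reversing 7 times and 1 time. Replicate numbers did not pair the libraries: same-numbered libraries correlated at -0.0757 to 0.0164, and 0 of 5 saline libraries correlated best with their own number. With the replicate block 0 members were called, the members' median was -0.21, and 9 members had an unadjusted p under 0.05 lower. The smallest p of sign flips over 5 pairs is 0.0625, so no share could pass.

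Counting error limits the genes of few CPM, among them Eno2, Eno3, Aldoc and Slc16a3, and EGF replicate 5 detected fewer genes at similar depth.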
